A study of Mus musculus with 244 samples.

Results

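The 8 genes followed here have products that build, bind or crosslink the matrix around cells and were read in single macrophages of mouse aortic plaque. They were Thbs1, Fn1, Vcan, Tgfbi, F13a1, Ecm1, Sparc and Tgm2, chosen by gene symbol with earlier results of these data known, and all 8 were found among the 24475 genes of the table. The regression cells came from aortic arches of Apoe-/- donors that had eaten a high-fat diet for 16 weeks and that were then grafted into wild-type (WT) mice on chow, where they stayed for 3 days. The baseline cells came from arches of Apoe-/- donors after the same 16 weeks of diet, without a graft. In both groups the arch was digested, cells positive for CD45, CD11b and F4/80 were sorted and each was captured alone, so that 1 library stands for 1 cell. Host genotype, diet and surgery differ together between the groups and cannot be told apart. The sources used here give no age, sex or number of mice, and whether a regression cell came from donor or host was not tested.

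The 244 libraries came to 113 regression and 125 baseline cells after 3 pairs of near-copy baseline libraries were averaged and 3 regression cells with fewer than 1000 genes were left out. A gene is called listed in a cell at an RPKM (reads scaled by transcript length and library size) of 1 or more. The median cell listed 2360 genes in regression and 2491 at baseline. Where depth could be estimated from low values, its median was about 937000 reads over 75 regression libraries and 1086000 reads over 89 baseline libraries. Read equivalents were taken for the annotated transcript of each gene with the longest coding sequence. At the median depth over both groups, an RPKM of 1 corresponds to 12.5 reads for Vcan, 8.34 for Fn1, 5.86 for Thbs1 and 1.37 for Sparc. No label ties a cell to a mouse. Each group is therefore 1 sample, an SD is a spread over cells, and no test between the groups is possible. Sample numbers fall into 5 stretches of 1 group each, regression 1 to 20, 93 to 111 and 168 to 244, and baseline 21 to 92 and 112 to 167, which gives 6 pairings of a regression with a baseline stretch. The median number of genes listed was 2669, 1892.5 and 2399 in these regression stretches and 2457 and 2515 in these baseline stretches. Of 10 macrophage markers at least 1 was listed in every cell of both groups, with 2 higher and 2 lower in regression by 1 or more and a median difference of -0.17. Itgam (CD11b) and Lyz2 were higher, by 1.64 and 1.45, and Adgre1 (F4/80) and Cd68 stood at -1.19 and -1.05. Adgre1 was listed in 80.5% of regression and 91.2% of baseline cells. The summed RPKM of these markers ran from 2144 to 52459 in regression and from 98.1 to 38253 at baseline. Apoe, the gene that donors lacked, was listed in 112 of 113 regression cells and in 9 of 125 baseline cells.

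Matrix glycoproteins are secreted and tie cells to collagen, fibrin and one another, mostly through integrins and syndecans on the cell surface. Macrophages make several of them during wound repair, and transglutaminases join fibronectin and fibrin into stable networks by bonds between glutamine and lysine side chains. The short coding motifs looked for were Arg-Gly-Asp, which integrins bind, and the Gly-Gln-Cys-Trp stretch with the reactive cysteine of transglutaminases. They were searched in frame in the annotated transcript of each gene with the longest coding sequence (GENCODE M21, mm10). Arg-Gly-Asp was found 2 times in Fn1, 1 time each in Thbs1 and Tgfbi and 0 times in the other genes. Gly-Gln-Cys-Trp was found 1 time each in F13a1 and Tgm2 and 0 times elsewhere. A match is a description of the sequence and not evidence of use. The spliced coding strand is shown 5′ to 3′ with the motif codons in capitals and 15 bases on each side. Exon numbers refer to the whole stretch shown. In Thbs1 the capitals are contiguous in the genome, and only a flank crosses the exon junction.
Fn1, first Arg-Gly-Asp, exon 30: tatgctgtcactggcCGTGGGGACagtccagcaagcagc
Fn1, second Arg-Gly-Asp, exon 40: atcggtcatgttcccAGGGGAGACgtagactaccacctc
Thbs1, Arg-Gly-Asp, exons 17 and 18: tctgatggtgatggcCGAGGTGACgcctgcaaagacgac
Tgfbi, Arg-Gly-Asp, exon 15: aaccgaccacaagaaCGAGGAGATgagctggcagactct
F13a1, active site, exon 7: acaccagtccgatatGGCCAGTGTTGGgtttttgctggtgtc
Tgm2, active site, exon 6: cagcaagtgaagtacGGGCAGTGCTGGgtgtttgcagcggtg

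The capitals lie at chr1:71606746-71606754 and chr1:71597443-71597451 (minus strand) for Fn1, chr2:118122882-118122890 (plus strand) for Thbs1 and chr13:56637155-56637163 (plus strand) for Tgfbi. Those of the enzymes lie at chr13:36946468-36946479 for F13a1 and chr2:158131356-158131367 for Tgm2, both on the minus strand. The first Fn1 motif belongs to the known cell-binding repeat of fibronectin.

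Thbs1 and Fn1, the genes of thrombospondin 1 and fibronectin, were near universal and abundant in regression cells, while most baseline cells listed no Thbs1 and about as many listed Fn1 as did not. Thbs1 (gene 21825, chromosome 2, 118111876 to 118127133, plus strand) encodes a secreted glycoprotein that binds CD47 and CD36 and activates latent TGF-beta. Its log2(RPKM + 1) ran from 0.00 to 11.96 with a median of 8.95 in 113 regression cells, and from 0.00 to 8.41 with a median of 0.00 in 125 baseline cells. The groups overlapped, but 70 of 113 regression cells exceeded every baseline cell. Means were 7.95 ± 2.92 in regression and 0.73 ± 1.76 at baseline (SD over 113 and 125 cells), a difference of 7.22. Thbs1 was listed in 109 regression cells (96.5%, exact 95% interval 91.2 to 99.0%) and in 19 baseline cells (15.2%, interval 9.41 to 22.7%). These intervals cover counting error only. The difference ran from 6.61 to 8.75 over the 6 stretch pairings. Stretch means were 9.47 in regression cells 1 to 20, 7.35 in 93 to 111 and 7.69 in 168 to 244, against 0.74 in baseline cells 21 to 92 and 0.71 in 112 to 167.

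Fn1 (gene 14268, chromosome 1, 71585520 to 71653200, minus strand) encodes fibronectin, which links integrins to collagen and fibrin. Its log2(RPKM + 1) ran from 0.00 to 11.72 with a median of 9.00 in regression cells and from 0.00 to 9.47 with a median of 1.14 in baseline cells. Here 47 regression cells lay above every baseline cell and 66 did not. Means were 7.96 ± 3.06 in regression and 2.65 ± 3.01 at baseline, a difference of 5.32. It was listed in 107 regression cells (94.7%, exact interval 88.8 to 98.0%) and 64 baseline cells (51.2%, interval 42.1 to 60.2%). The regression stretches were not alike in Fn1. Cells 93 to 111 had a mean of 5.83 and a median RPKM of 52.5, whereas cells 1 to 20 had a mean of 9.24 and a median RPKM of 1287. The median number of genes listed was also lower in cells 93 to 111, at 1892.5 against 2669, and its part was not tested. Both baseline stretches lay lower, at 2.59 in cells 21 to 92 and 2.72 in cells 112 to 167, and the pairings ran from 3.11 to 6.66. On mean level, Thbs1 and Fn1 ranked 172 and 171 among 24475 genes in regression, against 5035 and 1393 at baseline.

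Ecm1 and Vcan were listed in more regression than baseline cells. In regression both had a lower mean RPKM than Fn1 (173 for Ecm1, 18.0 for Vcan and 720 for Fn1), whereas at baseline Ecm1 (90.9) stood above Fn1 (53.1) and Vcan at 1.93. Ecm1 (gene 13601, chromosome 3, 95734147 to 95739569, minus strand) encodes a secreted glycoprotein that binds other matrix proteins. Its log2(RPKM + 1) ran from 0.00 to 10.65 with a median of 6.05 in regression and from 0.00 to 10.42 with a median of 1.37 at baseline. The ranges were nearly the same, with 1 regression cell above all baseline cells. Means were 5.03 ± 3.44 in regression and 3.04 ± 3.42 at baseline, a difference of 1.99. It was listed in 77.0% of regression cells (exact interval 68.1 to 84.4%) and 51.2% of baseline cells (interval 42.1 to 60.2%). The log2 ratio of mean RPKM was 0.92, and the pairings ran from 0.25 to 2.92. Ecm1 was lowest among the regression stretches in cells 93 to 111, with a mean of 3.31, near the baseline stretches 21 to 92 (3.07) and 112 to 167 (3.00). Cells 93 to 111 also had the lowest median number of genes listed of all stretches, and its part was not tested.

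Vcan (gene 13003, chromosome 13, 89655312 to 89742509, minus strand) encodes versican, a large chondroitin sulfate proteoglycan that binds hyaluronan. It was a gene of few cells. Its median was 0.00 in both groups and its highest cell stood at 8.71 in regression and 6.53 at baseline, with means of 1.20 ± 2.28 and 0.26 ± 1.07. It was listed in 29 regression cells (25.7%, exact interval 17.9 to 34.7%) and 8 baseline cells (6.40%, interval 2.80 to 12.2%). The difference was 0.94, from 0.20 to 1.14 over the pairings. In regression, the 11 highest cells held 91.0% of all Vcan RPKM, against 33.2% for the 11 highest Thbs1 cells.

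Tgfbi and Sparc did not share the size of these differences. Tgfbi (gene 21810, chromosome 13, 56609523 to 56639562, plus strand) encodes a secreted adhesion protein known as a target of TGF-beta. Its log2(RPKM + 1) ran from 0.00 to 10.11 with a median of 6.61 in regression and from 0.00 to 9.96 with a median of 5.78 at baseline, so the groups covered the same range. Means were 5.96 ± 2.83 in regression and 5.29 ± 2.79 at baseline, a difference of 0.67, and it was listed in 91.2% and 86.4% of cells (exact intervals 84.3 to 95.7% and 79.1 to 91.9%). The pairings went both ways, from -0.60 for regression cells 1 to 20 against baseline cells 21 to 92 to 1.98 for regression cells 93 to 111 against baseline cells 112 to 167. It was 1.11 when baseline cells 21 to 92 were left out and 0.31 when baseline cells 112 to 167 were.

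Sparc (gene 20692, chromosome 11, 55394500 to 55423183, minus strand) encodes a collagen-binding matricellular protein that fibroblasts, endothelial cells and platelets make in quantity. It was all but absent from the lists of both groups, with 1 of 113 regression cells (0.885%, exact interval 0.0224 to 4.83%) and 5 of 125 baseline cells (4.00%, interval 1.31 to 9.09%). Its log2(RPKM + 1) had a median of 0.00 in both groups and reached 2.30 in regression and 8.52 at baseline. Its means were 0.02 ± 0.22 in regression and 0.22 ± 1.22 at baseline, a difference of -0.20 that was -0.13 without baseline cells 21 to 92. Too few cells listed Sparc to read an association with markers of fibroblasts, smooth muscle or endothelium. At least 1 such marker was listed in 1 of 1 regression cell and 3 of 5 baseline cells with Sparc. Over all cells it was 18 of 113 in regression and 25 of 125 at baseline. This count was added after seeing the data, and the part of those cells in the result was not tested. Under the label of matrix glycoproteins made by macrophages, Sparc was thus rarely listed. In the 5 baseline cells that listed it, its level averaged 5.31 ± 3.46.

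The crosslinking enzymes F13a1 and Tgm2 were listed in more regression than baseline cells, with different distributions. F13a1 (gene 74145, chromosome 13, 36867178 to 37050244, minus strand) encodes the A subunit of coagulation factor XIII, which crosslinks fibrin and joins fibronectin to it. Its log2(RPKM + 1) ran from 0.00 to 10.06 with a median of 6.40 in regression and from 0.00 to 10.18 with a median of 3.01 at baseline. No regression cell exceeded the top baseline cell. Means were 5.47 ± 3.21 in regression and 3.96 ± 3.65 at baseline, a difference of 1.52, and it was listed in 81.4% and 62.4% of cells (exact intervals 73.0 to 88.1% and 53.3 to 70.9%). Mean RPKM was close, at 174 in regression and 153 at baseline, and the log2 ratio of these means was 0.18. At baseline the upper quartile (7.61) was near that of regression (8.03), while the lower quartile was 0.00 against 3.27 in regression. The pairings ran from -0.11 to 2.20, and the difference was 0.70 without regression cells 168 to 244 and 0.87 with a pseudocount of 10.

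Tgm2 (gene 21817, chromosome 2, 158116402 to 158146436, minus strand) encodes tissue transglutaminase, which acts inside and outside the cell and also serves as a fibronectin co-receptor for integrins. Its log2(RPKM + 1) ran from 0.00 to 9.06 with a median of 0.66 in regression and from 0.00 to 7.33 with a median of 0.00 at baseline. Only 6 regression cells lay above all baseline cells. Means were 2.17 ± 2.63 in regression and 0.85 ± 1.67 at baseline, a difference of 1.32, and it was listed in 48.7% and 21.6% of cells (exact intervals 39.2 to 58.3% and 14.7 to 29.8%). Tgm2 was listed in similar shares of the regression stretches, at 50.0% of cells 1 to 20, 50.0% of cells 93 to 111 and 48.0% of cells 168 to 244, against 18.8% of baseline cells 21 to 92 and 25.0% of cells 112 to 167. The pairings ran from 1.14 to 1.93, and the difference was 0.62 with a pseudocount of 10.

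**Figure D1:**
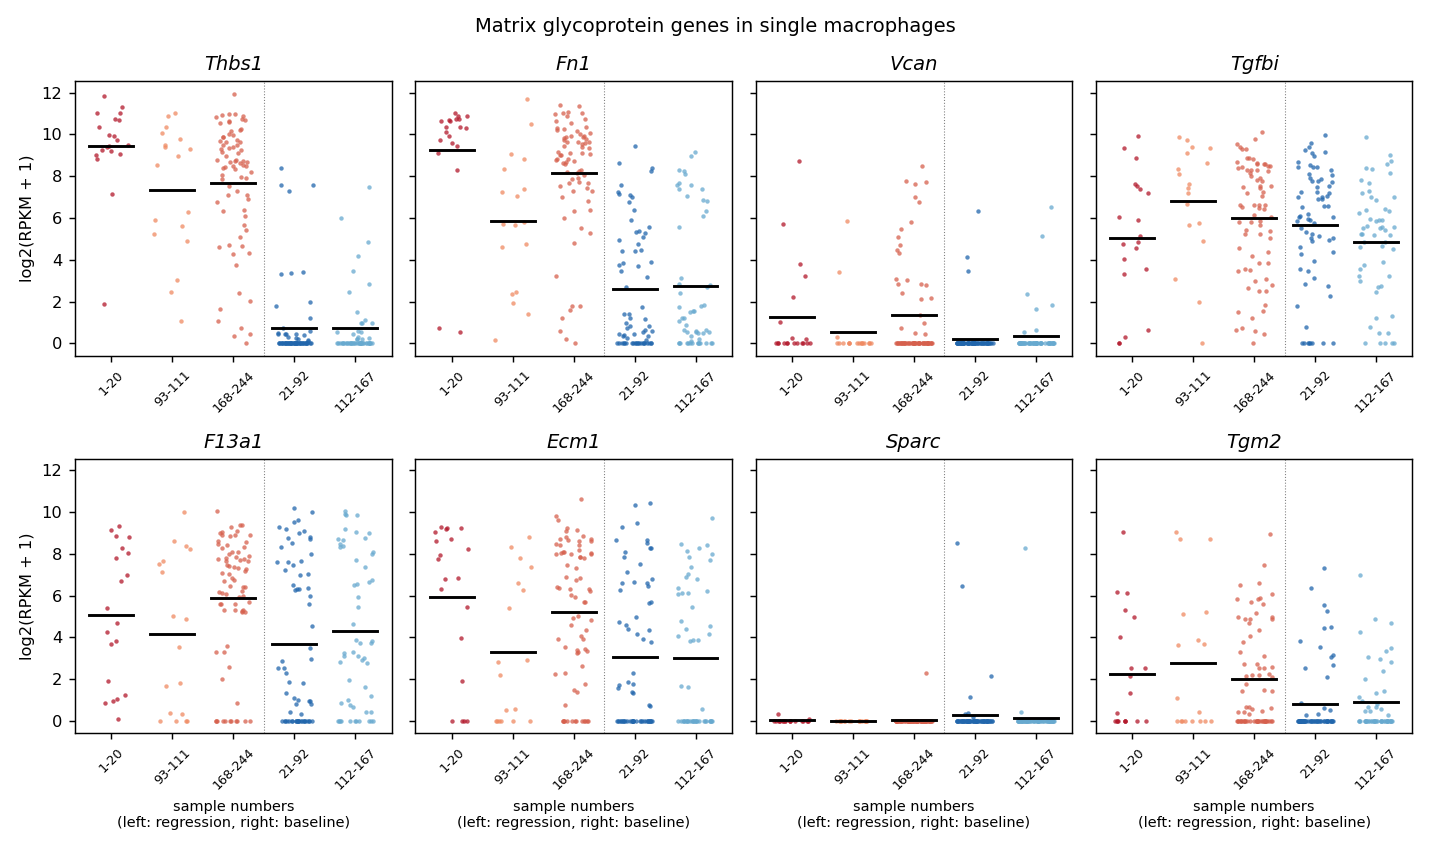
Level of each gene in single cells, as log2(RPKM + 1) on the vertical axis, by stretch of sample numbers on the horizontal axis (3 regression stretches left of the dotted line, 2 baseline stretches right of it). Points are cells and bars are stretch means; Thbs1 means lie at 7.35 or more in the regression stretches and at 0.74 or less in the baseline stretches, while F13a1 cells reach about 10 in both groups.

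With a difference of 1 or more, 5 of the 8 genes were higher in regression (Thbs1, Fn1, Ecm1, F13a1 and Tgm2) and 0 were lower. Over all genes tabulated, 0.923% were higher and 1.21% lower by this size, and over the 3946 genes that 25% or more of either group's cells listed, 5.6% were higher and 7.37% lower. The genes were chosen with this contrast known, so the count describes them and is read no further. The median difference over those 3946 genes was -0.05. Sparc was not among these 3946 genes, and Thbs1, Tgm2 and Vcan were among them only through their shares in regression.

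The difference in a gene's mean joins the share of cells that list it and its level in those cells, and the genes differed in how these went. Among listing cells, Thbs1 averaged 8.23 ± 2.57 in 109 regression cells and 4.20 ± 2.46 in 19 baseline cells, a difference of 4.03, and Fn1 8.39 ± 2.54 in 107 regression cells and 4.96 ± 2.57 in 64 baseline cells, a difference of 3.43. For the other genes apart from Sparc, levels in listing cells differed by 0.71 or less, which is below their SD over cells. Tgm2 averaged 4.38 ± 2.17 in 55 regression cells and 3.67 ± 1.65 in 27 baseline cells, and Ecm1 6.51 ± 2.39 in 87 and 5.90 ± 2.44 in 64. F13a1 averaged 6.68 ± 2.16 in 92 regression cells and 6.22 ± 2.76 in 78 baseline cells. On this log2 scale Thbs1 and Fn1 thus differed in both respects, and Ecm1, F13a1, Tgm2 and Vcan mainly in the share of cells. The reading depends on the scale. The log2 ratio of mean RPKM was 2.42 for Tgm2 and 2.69 for Vcan, against 0.92 for Ecm1 and 0.18 for F13a1.

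**Figure D2:**
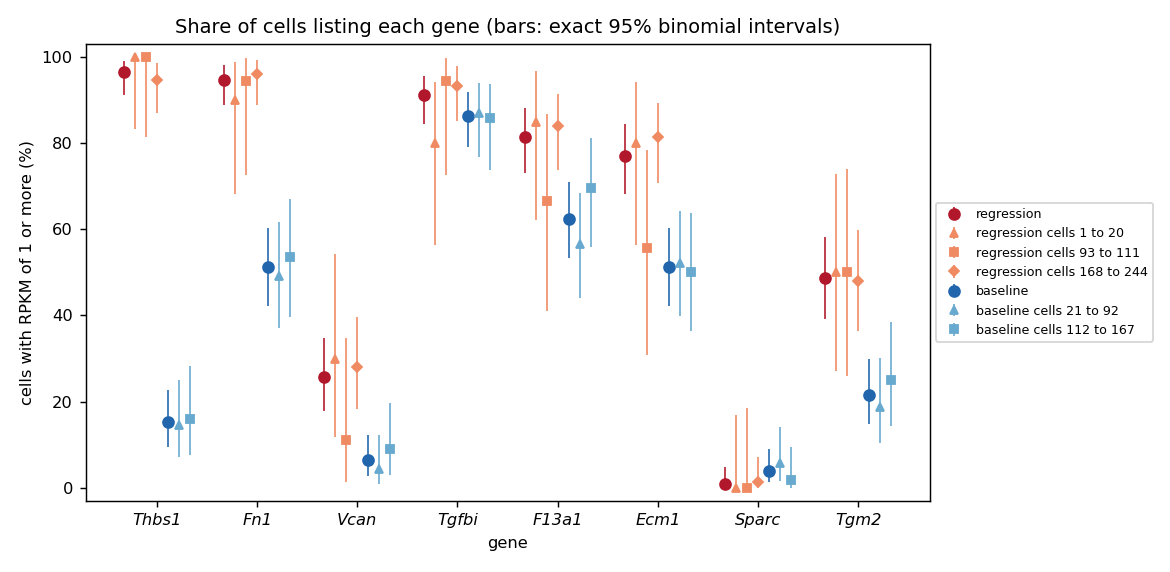
Share of cells with an RPKM of 1 or more for each gene (vertical axis, percent), in regression (red) and baseline (blue) and in each stretch (lighter marks), with exact 95% binomial intervals for counting error. Thbs1 stands at 96.5% in regression and 15.2% at baseline, Tgfbi at 91.2% and 86.4%, and Sparc at or under 5.80% in every group and stretch.

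A regression cell listed a median of 5 of the 8 genes (from 2 to 7), and a baseline cell a median of 3 (from 0 to 7). At least 5 were listed in 85 of 113 regression cells (75.2%) and 15 of 125 baseline cells (12.0%). The share of such cells was 75.0, 61.1 and 78.7% in regression stretches 1 to 20, 93 to 111 and 168 to 244, against 13.0 and 10.7% in baseline stretches 21 to 92 and 112 to 167. Cells that listed more genes of any kind also listed more of these 8, with Spearman's correlation of 0.34 over regression and 0.29 over baseline cells. Cells 93 to 111 had the lowest median number of genes listed, at 1892.5. The summed RPKM of the 8 genes was 0.237% of a cell's total in the median regression cell and 0.0518% in the median baseline cell.

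Which gene led the set also differed. In regression cells the highest RPKM of the 8 belonged to Fn1 in 51 cells (45.1%) and Thbs1 in 34 (30.1%), and at baseline to Tgfbi in 47 cells (37.6%), F13a1 in 39 (31.2%) and Ecm1 in 18 (14.4%). Thbs1 led in 0 baseline cells, and 4 baseline cells listed none of the 8. Of the summed RPKM of the set, Fn1 and Thbs1 held 35.7 and 34.6% in regression and 11.7 and 2.17% at baseline.

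**Figure D3:**
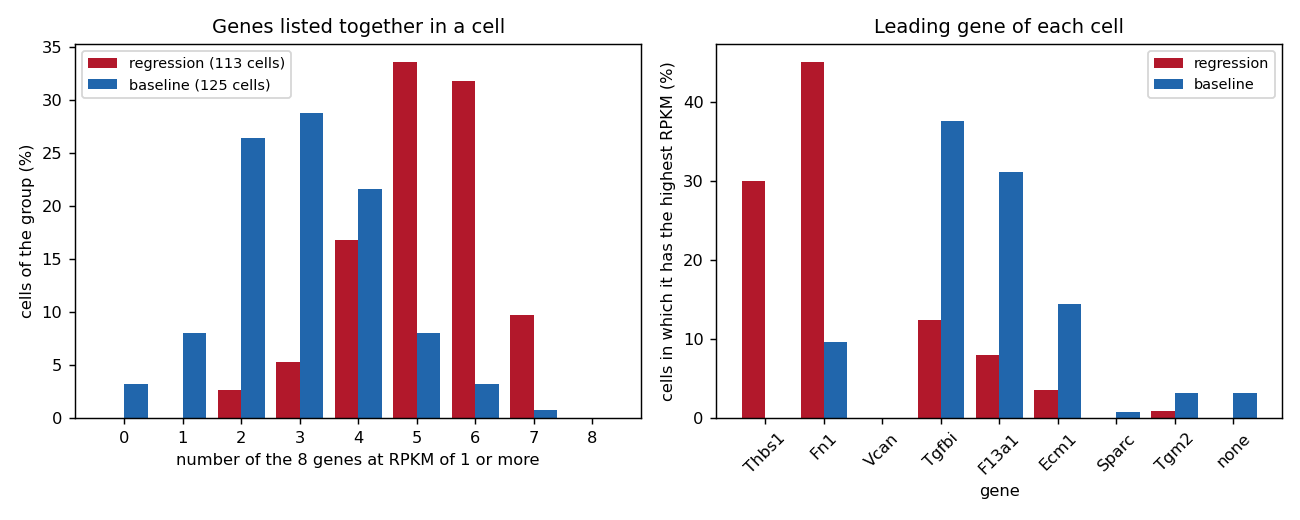
Left, percent of the cells of each group (vertical axis) that listed 0 to 8 of the genes (horizontal axis), with 113 regression cells in red and 125 baseline cells in blue. Right, percent of cells in which each gene had the highest RPKM of the 8; Fn1 led in 45.1% of regression cells and Tgfbi in 37.6% of baseline cells.

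Co-expression was described within each group by Spearman's correlation over cells after stretch means were subtracted, for genes that 25% or more of its cells listed. The cells of a group share preparation and vary in depth, so no p-value is given. In regression, 4 of 21 pairs had a correlation of 0.3 or more, all with Fn1 or Thbs1: Thbs1 with Fn1 (0.42), Fn1 with Ecm1 (0.38), Thbs1 with Ecm1 (0.38) and Fn1 with Vcan (0.34). Within regression cells 168 to 244 alone, these pairs stood at 0.44, 0.39, 0.51 and 0.42. All 29 regression cells that listed Vcan also listed Fn1, which is 25.7% of cells against 24.3% were the genes independent, since most cells listed Fn1. Tgfbi and F13a1 varied apart from this group, with correlations from -0.06 to 0.16 for every pair of either with the other genes. Within cells 168 to 244 both stood higher with Tgm2, at 0.26 for Tgfbi and 0.25 for F13a1. The correlation with the number of genes listed per cell was -0.01 for Thbs1, 0.06 for Ecm1, 0.19 for Vcan and 0.20 for Fn1 in regression.

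At baseline, 4 genes were listed often enough, and their 6 pairs had correlations from 0.05 to 0.29. The highest was Fn1 with F13a1 (0.29), a pair at -0.01 in regression; whether the groups differ in it was not tested. Fn1 with Ecm1 stood at 0.16 at baseline. Thbs1, Fn1 and Ecm1 were listed together in 85 of 113 regression cells (75.2%) and 8 of 125 baseline cells (6.40%), and none of these 3 was listed in 0 regression cells and 32 baseline cells (25.6%). Such counts follow in large part from each gene's own share, and the share expected for all 3 was not computed. Thbs1 with Fn1, Thbs1 with Ecm1 and Fn1 with Ecm1 were listed together in 91.2, 76.1 and 76.1% of regression cells. Were the genes independent, these would be 91.3, 74.3 and 72.9%. At baseline they were 9.60, 10.4 and 29.6%, against 7.78, 7.78 and 26.2%.

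**Figure D4:**
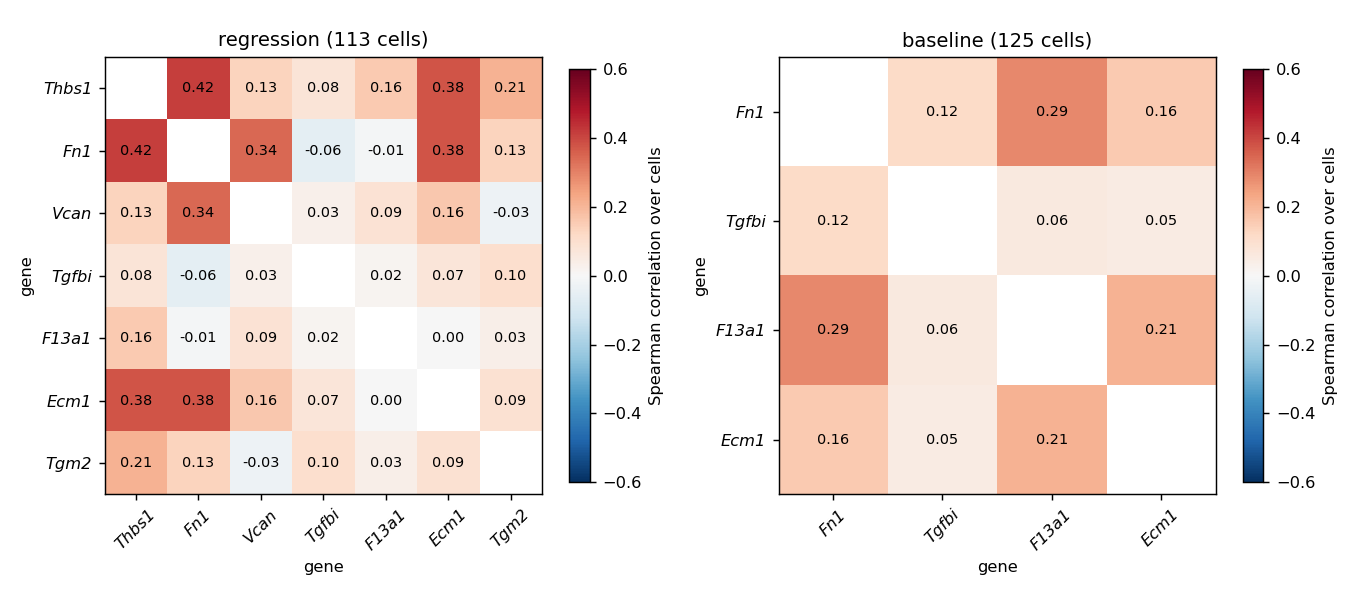
Spearman's correlation between pairs of genes over 113 regression cells (left) and 125 baseline cells (right), after stretch means were subtracted, for genes that 25% or more of its cells listed. Colour and number give correlation; the highest values are 0.42 for Thbs1 with Fn1 in regression and 0.29 for Fn1 with F13a1 at baseline.

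Each gene was also set against all genes that passed this same limit, 3329 in regression and 3409 at baseline, and the 3 most alike by correlation were taken. The median over all genes compared lay between -0.01 and 0.06 for each. These 3 are picked as the highest of many values, and how high such values reach without any relation was not tested. In regression, Thbs1 was most alike with F10 (0.43), the gene of coagulation factor X, Slpi (0.43), a secreted protease inhibitor, and Fn1 (0.42). Fn1 was most alike with Sdc3 (0.66), a syndecan, Itgam (0.57), the CD11b antigen used in the sort, and Smpdl3a (0.57), a phosphodiesterase. Ecm1 was most alike with Smpdl3a (0.42), Ms4a8a (0.40) and F10 (0.39). Within cells 168 to 244, correlations were 0.47 for Thbs1 with F10, 0.63 for Fn1 with Sdc3 and 0.45 for Ecm1 with Smpdl3a. Tgm2 was most alike with Vegfa (0.36), a growth factor gene, Myh9 (0.35), a non-muscle myosin gene, and the kinase gene Rock2 (0.35). F13a1 was most alike with Ms4a6b (0.38), Ms4a4a (0.37) and Ms4a6c (0.35), all of the Ms4a family of membrane proteins. Among the genes most alike with Vcan were Add3 and Hp (0.39 each). Tgfbi was most alike with Dph3 (0.36), Sf3b1 (0.33) and Runx3 (0.31), which stood at 0.01, -0.005 and 0.06 with it at baseline.

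At baseline, F13a1 was most alike with Cbr2 (0.63), a carbonyl reductase, the chemokine gene Ccl6 (0.58) and the transcription factor gene Maf (0.55), and within baseline cells 21 to 92 these stood at 0.74, 0.59 and 0.56. In regression the same genes stood at 0.19, 0.10 and 0.30 with F13a1, a difference that was not tested. Fn1 was most alike with Retnla (0.44), which encodes a secreted protein of alternatively activated macrophages, Tmem147 (0.40) and Gda (0.40). Ecm1 was most alike with Folr2 (0.40), a folate receptor, Cndp2 (0.39) and Adam9 (0.36), and Tgfbi with Ndufb7 (0.36), Ufc1 (0.35) and Cstb (0.35).

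Lists of related genes were read for members that 5% or more of either group's cells listed. Of all 9299 such genes 2.43% were higher in regression by 1 or more and 3.17% lower, with a median difference of -0.02. Among 17 of 18 matrix receptors, 1 was higher and 1 lower by 1 or more, and the median was 0.29. Cd44, a receptor for hyaluronan, averaged 6.27 ± 2.80 in regression and 4.97 ± 2.98 at baseline, a difference of 1.29, and Sdc4, another syndecan, 7.25 ± 4.19 and 9.11 ± 3.67, a difference of -1.86. The pairings ran from -0.03 to 3.26 for Cd44 and from -4.84 to -0.71 for Sdc4. Of integrin subunits that bind Arg-Gly-Asp, Itgav stood at 0.29, Itgb5 at 0.32, Itgb1 at -0.07 and Itga5 at -0.23. Their pairings ran from -1.05 to 0.96, -1.30 to 1.66, -0.98 to 0.20 and -0.52 to -0.09, so the stretches differed more than these means. The thrombospondin receptors Cd47 and Cd36 stood at -0.96 and -0.23, with pairings from -1.43 to -0.63 and from -2.99 to 1.49.

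Lists of other matrix genes passed the 5% filter in differing shares, beside 9299 of all 24475 genes of the table. Of 44 other glycoproteins and proteoglycans 9 passed it and 18 were listed in no cell, with 2 higher by 1 or more, 0 lower and a median of 0.57. Emilin2, an elastin-associated glycoprotein, averaged 4.56 ± 3.00 in regression and 2.02 ± 2.54 at baseline, a difference of 2.53, and was higher in 6 of 6 pairings. Spp1, osteopontin, differed by 1.03 but was higher in only 2 of 6. Of 14 collagen genes only Col14a1 passed, listed in 13.3% of regression and 38.4% of baseline cells, with means of 0.56 ± 1.53 in regression and 1.56 ± 2.13 at baseline, lower by just over 1. Of 18 crosslinking and assembly enzymes 6 passed, with 2 higher, 0 lower and a median of 0.44; they were the prolyl hydroxylase subunit gene P4ha1 (1.13) and P4hb (1.02). Of 17 matrix proteases and inhibitors 10 passed, with 2 higher, 1 lower and a median of 0.33, led by the elastase gene Mmp12 (-1.82) and the membrane protease gene Mmp14 (1.49).

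Of 19 genes of the TGF-beta pathway 15 passed, with 0 higher, 1 lower and a median of -0.03. The receptor gene Tgfbr1 averaged 1.73 ± 2.56 in regression and 3.58 ± 3.07 at baseline, a difference of -1.85, lower in 6 of 6 pairings, and the inhibitor gene Skil differed by -0.90. Of 16 coagulation and fibrinolysis genes 12 passed, with 5 higher, 0 lower and a median of 0.57. F10 averaged 2.86 ± 3.09 in regression and 0.45 ± 1.40 at baseline, a difference of 2.41, and was listed in 51.3% of regression and 8.00% of baseline cells. S100a10, whose product binds plasminogen with annexin A2, differed by 2.21, Anxa2 by 1.36, F7 by 1.14 and the urokinase receptor gene Plaur by 1.02.

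**Figure D5:**
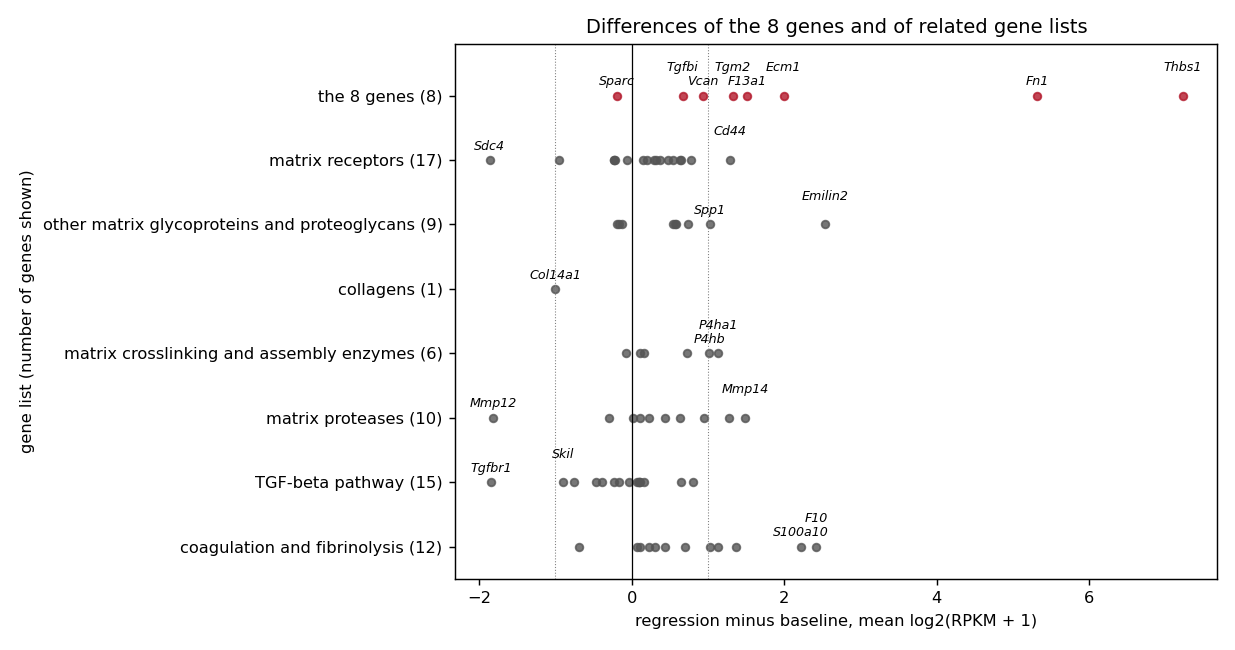
Difference of each gene between regression and baseline (horizontal axis, mean log2(RPKM + 1)), for the 8 genes (red) and for the genes of 7 related lists that 5% or more of either group's cells listed (grey), 1 row a list. Dotted lines mark differences of -1 and 1; Thbs1 at 7.22 and Fn1 at 5.32 lie beyond every gene of the lists, whose highest is Emilin2 at 2.53.

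Markers of other cell types were counted because platelets, stromal cells and other leukocytes also make these proteins. Of 11 platelet and megakaryocyte markers, Itga2b, Gp9 and Gp5 were among those at 0 in every cell. Pf4, which macrophages also express, was listed in 83.2% of regression and 60.8% of baseline cells, and Ppbp in 11 regression cells and 0 baseline cells. The summed RPKM of this list ran from 0.00 to 27491 in regression and from 0.00 to 4549 at baseline. Without the 15 regression and 6 baseline cells that listed a platelet marker other than Pf4, the differences were 6.96 for Thbs1, 5.14 for Fn1 and 1.22 for F13a1.

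Fibroblast markers (0 of 9 past the filter; Pdgfra and Pdgfrb at 0 in every cell) were listed in 6 regression and 13 baseline cells, smooth muscle markers (0 of 7; Des and Lmod1 at 0) in 4 and 4, and endothelial markers (1 of 7; Tek and Emcn at 0) in 9 and 10. Their summed RPKM reached 36.9, 92.7 and 209 in regression and 746, 19.3 and 33.3 at baseline, from 0.00. Without cells that listed any of these, differences were 7.14 for Thbs1, 5.41 for Fn1 and -0.11 for Sparc.

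Markers of peritoneal cavity macrophages were listed in 42 of 113 regression cells (37.2%) and 30 of 125 baseline cells (24.0%), with 4 of 5 markers past the filter. Icam2 was listed in 23 regression and 3 baseline cells and Gata6, which defines these cells, in 2 and 0. The list's summed RPKM ran from 0.00 to 3013 in regression and from 0.00 to 1118 at baseline. Without cells listing any of them, differences were 6.48 for Thbs1, 4.34 for Fn1, 1.32 for Ecm1, 0.58 for Vcan, 2.30 for F13a1 and 1.09 for Tgfbi. Of 6 classical monocyte markers, all past the filter, 3 were higher in regression by 1 or more and 0 lower: Hp at 2.25, Ccr2 at 2.03 and Chil3 at 1.75. Of the 6 markers, 4 stood above 0 and 2 below, with a median difference of 1.12. At least 1 was listed in 109 regression and 102 baseline cells, with a summed RPKM of 0.00 to 17664 in regression and 0.00 to 7786 at baseline; their part in these differences was not tested. Neutrophil markers (2 of 8; Ly6g, Camp, Ltf, Ngp and Mpo at 0) were listed in 36 regression and 17 baseline cells, dendritic cell markers (3 of 7) in 10 and 23, and T and B cell markers (1 of 6) in 15 and 15. Their summed RPKM ran from 0.00 to 29848, 1634 and 446 in regression and from 0.00 to 17572, 1884 and 656 at baseline. Without cells listing any of these 3 kinds, differences were 6.69 for Thbs1 and 5.27 for Fn1.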

How the data were processed

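The authors deposited an RPKM table for 24475 genes and 244 libraries, with a file of gene symbols and chromosomes. Per the labels' protocols, single cells were loaded on the C1 system, followed by SMARTer cDNA and Nextera XT libraries; that text names islet cells, while other labels say macrophage and aortic arch. Per the submitters' processing notes, the build was mm10 and tools included CASAVA 1.8.2 and FastQC. The aligner, annotation and RPKM software were not given in the sources used here. No molecular identifiers are described, so amplification noise enters each value.

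Columns were matched to samples by the number in the title. Library pairs with a log2 correlation over 0.9 were averaged (3 baseline pairs, 0.992 to 0.997, against at most 0.654 elsewhere), and cells listing under 1000 genes were dropped. A difference is the mean log2(RPKM + 1) over regression cells minus that over baseline cells; this scale understates differences of low genes. No count model was run on RPKM. The value of a single read was sought in 5727 single-transcript genes (GENCODE M21). Estimates counted as agreed where those from 2 gene sets lay within about 10% of each other. The estimate from all these genes also had to lie within about 10% of that from the first set. In all, 164 libraries met both conditions. Their depth ran from 387000 to 7961000 reads, and 50.5% of low values, as a median over all libraries, came within 0.1 of a whole read count. Depth was chosen to bring low values near whole counts, so this share is no check of it. Levels are compared between genes only as RPKM, which is per length. No doublet caller was run. Some marker genes and 1 of the most alike genes are not reported here. The 8 genes and the 7 pathway and 10 marker lists were chosen with earlier results of these data known. Besides the 8 genes, the text names the 2 members of each pathway list with the largest difference and the 3 genes most alike with each gene; other list members were named after their values were seen. The difference computation was tested on simulated data. Analyses used Python 3.11.15, numpy 2.4.6, pandas 2.3.3, scipy 1.17.1 and matplotlib 3.10.9.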

Additional observations from a re-analysis of the deposited data

How the results depend on the processing

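No paired analysis was possible because the groups share no sample number. No difference of the 5 genes that stood at 1 or more changed sign under any of the 18 other settings, among them other pseudocounts, filters on cells, rescaled cells, stretches left out and 4 exclusions of cells with markers of other types, which were chosen after seeing the data. A value is said to have moved when it did so by more than 1 SD over the 6 stretch pairings. With a pseudocount of 0.1, differences were 9.63 for Thbs1, 1.62 for Vcan, 2.15 for Tgm2 and -0.32 for Sparc. With a pseudocount of 10 they were 4.64 for Thbs1, 3.75 for Fn1, 0.42 for Vcan, 0.87 for F13a1, 0.62 for Tgm2 and -0.11 for Sparc, and 3 of the 8 genes, not 5, were higher by 1 or more. As log2 ratios of mean RPKM they were 6.01 for Thbs1, 3.74 for Fn1, 2.69 for Vcan, 0.18 for F13a1, 0.92 for Ecm1, 2.42 for Tgm2 and -2.79 for Sparc, so that Ecm1 and F13a1 fell short of 1. The Sparc ratio rests mainly on the 1 regression and 5 baseline cells that listed it. The number of genes higher by 1 or more ran from 3 to 6 over the settings, with 4 for these ratios and 4 without cells 168 to 244. Without cells listing a neutrophil, dendritic, T or B cell marker Vcan stood at 1.37, and without cells listing a fibroblast, smooth muscle or endothelial marker Sparc stood at -0.11. The cause was not tested, but a larger pseudocount shrinks low values by construction. The share of genes listed in at least 25% of cells that were higher by 1 or more was 11.3% and 2.20% with pseudocounts of 0.1 and 10. Shares of cells depended on the RPKM cutoff. With any RPKM above 0, Thbs1 was found in 35.2% and Fn1 in 72.0% of baseline cells, and each in 99.1% of regression cells. At an RPKM of 10 or more these were 6.40% and 33.6% at baseline, and 89.4% and 86.7% in regression. The co-expression values within cells 168 to 244 and 21 to 92 were also chosen after seeing the data. Subtracting stretch means breaks ties at 0, so correlations of members listed in fewer than 25% of a group's cells are not given. Vcan passed this limit in regression but was at 0 in 77 of 113 cells, so its correlations carry this weakness. Without the subtraction, Vcan stood at 0.44 with Fn1, 0.42 with Add3 and 0.34 with Hp over regression cells. At this depth an RPKM of 1 is few reads for short transcripts, and a gene that is not listed may still be expressed.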
